A study of Mus musculus with 8 samples.

Results

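The comparison of HU210 with drug-free DMSO at 6 h rested on 2 of the 8 mRNA libraries of a time course, 1 library of stimulated and 1 of control Neuro2A (N2A) cells. N2A is a mouse neuroblastoma line, and HU210 is a potent agonist of the cannabinoid 1 receptor (CB1R) whose action on these cells leads to neurite outgrowth. Both groups had first been kept for 16 h in serum-free medium with albumin and then received either 2 µM HU210, added from a stock in DMSO, or DMSO alone. Each library was made from poly(A)-selected RNA of 2 to 3 independent experiments that had been pooled, so no difference at 6 h has a replicate check, and no p-value or error can be given. The members were the genes that the authors' table of expression values lists for the pair of 6 h libraries, which were 16372 of the 16980 genes listed at any time point. The DMSO libraries of 2 h, 4 h and 8 h served to show which of the 6 h libraries had moved, and 15888 genes were listed at all 4 time points.

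CB1R is a receptor coupled to inhibitory G proteins, which lower the activity of adenylyl cyclase and with it the level of cyclic AMP (cAMP). Cyclic AMP acts through protein kinase A and the transcription factor CREB, and phosphodiesterases such as the PDE4 family break it down. In N2A cells the receptor is also known to act through Rap, Ral and Src on the transcription factor STAT3. Extension of a neurite needs new membrane, which is made in the endoplasmic reticulum (ER) and Golgi and carried along microtubules in vesicles, and the study asked which of these cell functions respond at which time.

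Expression was given in FPKM, fragment counts scaled to the length of the transcript and, between libraries, by the upper quartile of the counts. The change of a gene is the log2 of the ratio of FPKM + 1 between the libraries. The added 1 makes the change of genes at low FPKM look smaller than it was. The FPKM of all listed genes summed to 416178 in the HU210 library of 6 h and to 403554 in its DMSO control, within the range of 403554 to 428767 over the 8 libraries, and 11444 and 11416 genes had an FPKM of at least 1. The DMSO library of 6 h had the lowest sum of the series, but after this scaling a sum is not a measure of sequencing depth. Of 24 markers of neuroblasts and neurons, 20 were listed at 6 h. Peripherin (Prph) stood at 519.9 FPKM with HU210 and 452 with DMSO, and the sympathetic neuroblast factors Phox2a, Hand2, Gata2 and Gata3 were present in both, the lowest being Gata3 with 5.66 and 4.45. The genes of catecholamine synthesis were low, with 2.17 and 2.09 for Th, 1.02 and 1.12 for Dbh and 1.17 and 0.785 for Ddc, and 4 of the 24 markers were not listed. The markers of macrophages summed to 0.665 FPKM with HU210 and 0.883 with DMSO over 5 listed genes. The 4 listed fibroblast markers summed to 3.79 and 3.65, the 6 of glia to 7.64 and 6.29, and the 4 of endothelium to 7.60 and 6.05, of which von Willebrand factor (Vwf) made up 5.84 and 4.27.

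At 6 h, 259 genes (1.58% of those listed) were at least 1.5-fold higher and 137 (0.837%) at least 1.5-fold lower with HU210 than with DMSO. With the lower cutoff of 1.3-fold, 842 genes (5.14%) were higher and 297 (1.81%) lower. With a pseudocount of 0.1 in place of 1, 667 genes were 1.5-fold higher and 523 lower. Centring the pair on the median of the expressed genes moved the split to 196 higher and 170 lower at 1.5-fold and to 561 and 431 at 1.3-fold. The median change of all 16372 genes was 0.0221. Over the 11306 genes listed at all times with a mean FPKM of at least 1 it was 0.0625, and 65.6% of them were above 0. The higher genes were mostly mRNAs, with 200 of 259 protein-coding (77.2%) and 27 small nucleolar RNAs (snoRNAs). Among the lower genes, 70 of 137 were protein-coding (51.1%), 32 were snoRNAs and 14 were small nuclear RNAs. Many lower genes were thus short RNAs, which poly(A) selection and a fragment size of up to 300 bp sample poorly. Of 946 genes with less than 300 bp of exons, 9.51% were past 1.5-fold in either direction, against 1.91% of the 14942 longer genes. Of 698 genes above 100 FPKM only 3 were 1.5-fold higher and 1 lower, and of 3366 genes between 20 and 100 FPKM 39 were higher and 0 lower.

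A difference between the 6 h libraries can come from either side, so each of them was set against the lowest and highest value of the DMSO libraries of 2 h, 4 h and 8 h. Over all 15888 genes, the HU210 library of 6 h lay outside this range for 41.1% and the DMSO library of 6 h for 46.3%. Of the 250 genes 1.5-fold higher and listed at all times, 153 (61.2%) had the HU210 value outside the range and 133 (53.2%) the DMSO value. For 88 of them only the HU210 library had left the range, for 68 only the DMSO library, for 65 both and for 29 neither. Without the DMSO library of 4 h in the range, the HU210 value was outside for 231 of the 250, against 163 without that of 2 h and 162 without that of 8 h. A range of fewer libraries is narrower for every gene, and the share of all genes outside it was not counted. Among the 126 genes 1.5-fold lower, the HU210 value was outside for 63 and the DMSO value for 88 (69.8%), and the DMSO library alone had moved for 48 against 23 with the HU210 library alone. Among genes with at least 300 bp of exons, a limit added after seeing the data, the order turned in both directions. Of 210 higher genes the HU210 value was then outside for 120 and the DMSO value for 126, with 62 and 68 for 1 library alone, and of 76 lower genes for 51 and 48, with 21 and 18 for 1 library alone. The call and the positions use the same pair of libraries, so these shares describe the calls and do not test them. With the cutoff of 1.3-fold the DMSO library was outside more often than the HU210 library in both directions, for 488 against 386 of 824 higher genes and for 200 against 151 of 279 lower genes. In medians, the 1.5-fold higher genes stood 0.44 above the mean of the other DMSO libraries with HU210 and 0.35 below it with DMSO on the log2 scale. For the 1.5-fold lower genes, these medians were -0.34 and 0.61, the larger distance being on the DMSO side.

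**Figure D1:**
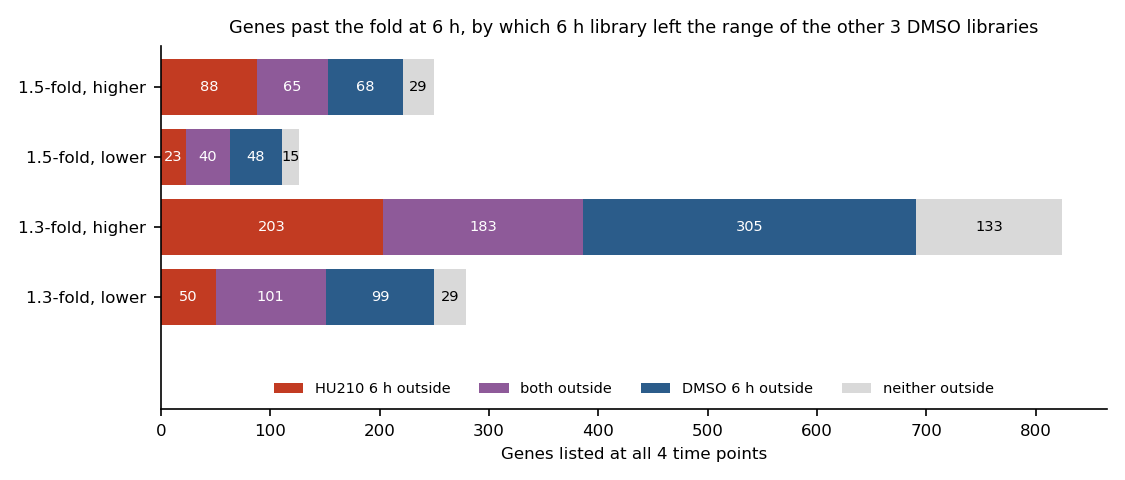
Genes at least 1.5-fold or 1.3-fold higher or lower with HU210 at 6 h and listed at all 4 time points, as horizontal bars of gene numbers. Colours give which 6 h library lay outside the range of the DMSO libraries of 2 h, 4 h and 8 h: among the 1.5-fold higher genes the HU210 library alone for 88, both for 65, the DMSO library alone for 68 and neither for 29.

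Over all genes listed at all times, the HU210 library of 6 h exceeded the highest of the other 3 DMSO libraries by at least 1.5-fold for 71 genes (0.447%) and fell short of the lowest by that much for 17 (0.107%). The DMSO library of 6 h did so for 71 (0.447%) and 22 genes (0.138%); departures of this size were thus present in the control as well.

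Pde4d, which encodes a phosphodiesterase that degrades cAMP, was the gene with the farthest HU210 value above the DMSO libraries. Its FPKM was 11.9 in the HU210 library of 6 h, against 3.15 in the DMSO library of 6 h and 3.82, 4.22 and 3.94 in those of 2 h, 4 h and 8 h, a log2 change of 1.63. The HU210 libraries of 2 h, 4 h and 8 h had 2.60, 2.39 and 7.32, so stimulated cells were below all DMSO libraries early and above them from 6 h on. The gene lies at chr13:109240142-110743669 (mm9) on the plus strand. Other PDE4 genes did not show this pattern. Pde4a was at 1.98 with HU210 and 2.17 with DMSO at 6 h, Pde4c was below 0.3 FPKM in every library, and Pde4b was not listed at 6 h. The CREB gene itself, Creb1, was at 12.4 and 12.6, and the related modulator Crem, which cAMP can induce, at 5.61 against 4.14 to 4.84 in the 4 DMSO libraries.

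Stat5a, a transcription factor activated by cytokine and growth factor receptors, was nearly constant in all 4 DMSO libraries and high in the later stimulated ones. With DMSO it stood at 2.00, 1.94, 2.09 and 2.35 FPKM at 2, 4, 6 and 8 h. With HU210 the same times had 1.86, 1.96, 5.88 and 5.10. The 6 h value was thus 2.05-fold above the highest DMSO library on the scale of FPKM + 1 (chr11:100720665-100746483, mm9). Stat5b, its neighbour on chromosome 11 and close paralog, was at 6.68 and 5.75 at 6 h. Stat3 went the other way at 6 h, with 27.1 FPKM with HU210 against 35.1 in the control and 35.4 to 48.2 in the other DMSO libraries.

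Further genes were high in the HU210 library of 6 h and in no DMSO library. Ikzf4, a zinc finger transcription factor of the Ikaros family, was at 3.71 FPKM against 0.657 to 0.916 in the 4 DMSO libraries and 0.629 to 1.01 in the other HU210 libraries. Tmod1, which caps the slow-growing end of actin filaments, was at 8.78 against 3.41 to 4.26. It shares 32.6% of its exon bases with Tstd2 on the opposite strand, which was at 15.1 and 16.1 at 6 h. At 8 h Ikzf4 and Tmod1 no longer exceeded the DMSO libraries, with 0.629 and 4.05 FPKM. Cflar, an inhibitor of caspase-8 activation, was at 7.69 against 3.10 to 4.14 in the DMSO libraries. Ccdc28b, known for a link to ciliary disease, was at 11.2 against 4.94 to 5.92, although the HU210 library of 4 h had already reached 8.09. Tmem116, a membrane protein, was at 5.07 against 1.45 to 1.72, and 22.7% of its exon bases also belong to Mapkapk5 on the opposite strand. The study's materials name a stranded mRNA kit and the labels of these libraries a genomic DNA kit, and whether the FPKM took account of strand is not given in the sources used here, so values that rest on shared bases are uncertain. Iqck, which shares 16.4% of its exon bases with Gprc5b on the opposite strand, was at 4.52 against 1.29 to 2.03. Overlaps are not given for every gene named here. BC049762 was at 4.41 against 0.106 to 1.48, and its DMSO library of 6 h was itself the highest of the DMSO libraries.

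**Figure D2:**
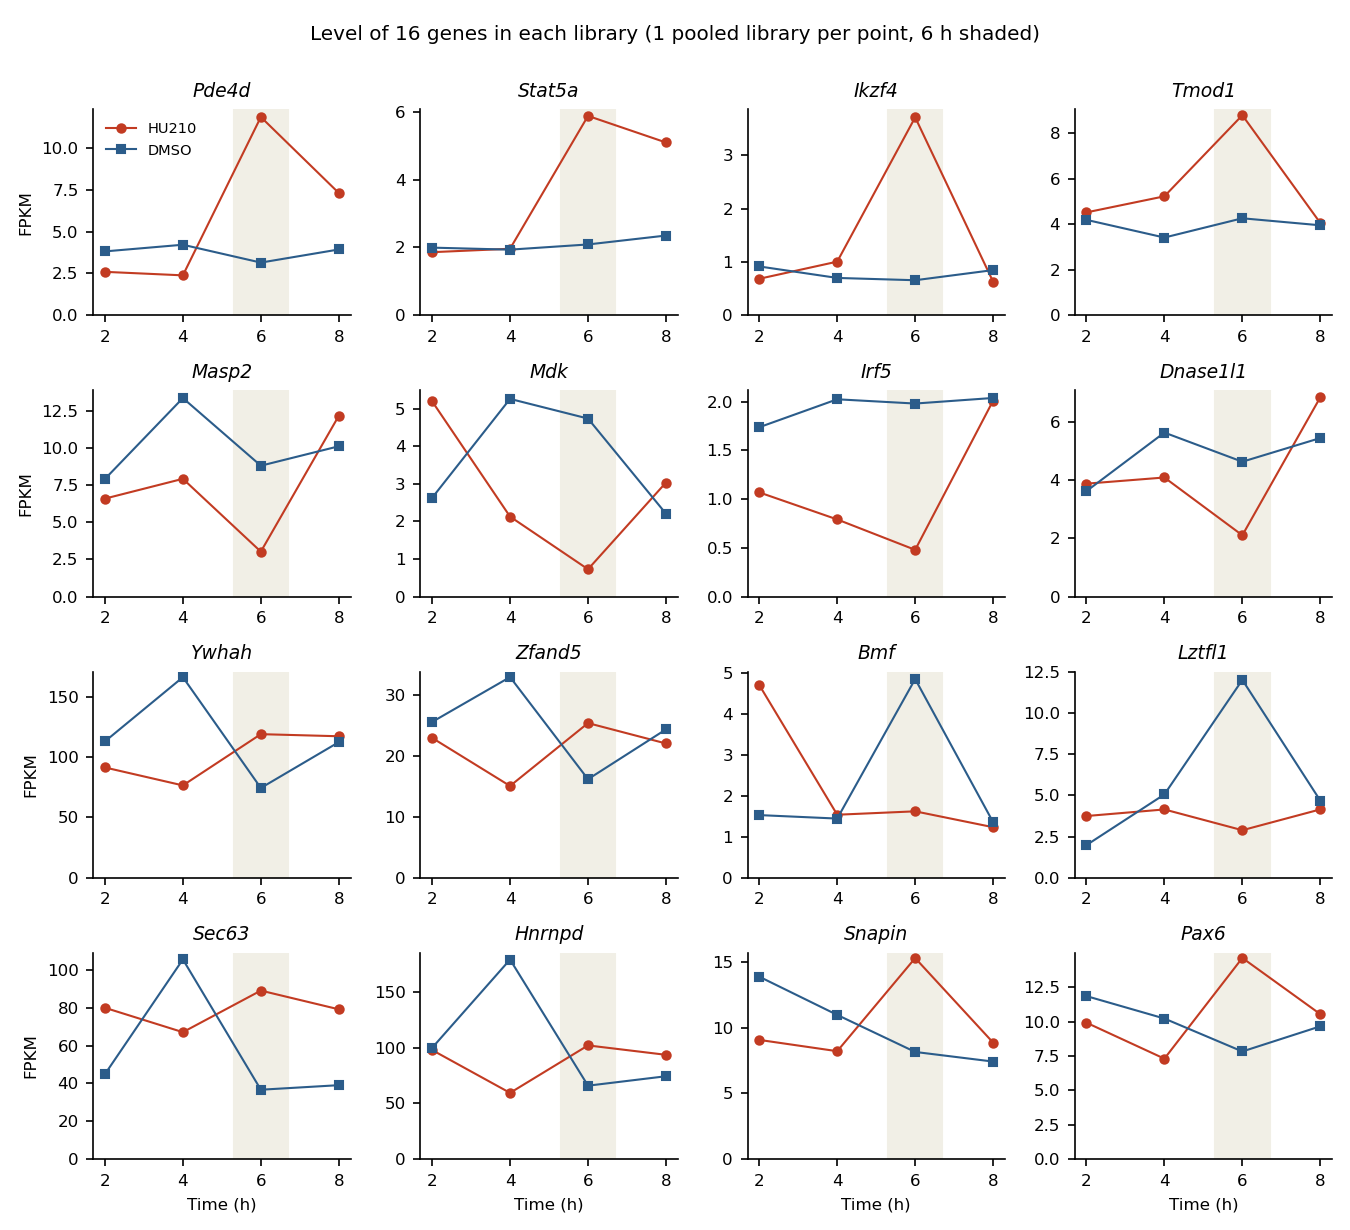
FPKM (vertical axes, from 0) at 2, 4, 6 and 8 h (horizontal axes) of 16 genes in the HU210 libraries (red circles) and DMSO libraries (blue squares), each point 1 pooled library, with 6 h shaded. In the upper panels the HU210 value of 6 h stands apart (Pde4d 11.9 FPKM, Masp2 3.02 FPKM), whereas for Ywhah, Zfand5, Bmf and Lztfl1 the DMSO value of 6 h stands apart among the DMSO libraries, although HU210 libraries of other times come near it for Ywhah (76.6 at 4 h), Zfand5 (15.1 at 4 h) and Bmf (4.70 at 2 h).

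Fewer genes were low in the HU210 library alone. Masp2, which encodes a serine protease of the lectin pathway of complement, was at 3.02 FPKM with HU210 at 6 h. Its DMSO libraries had 7.92, 13.4, 8.81 and 10.1 at 2, 4, 6 and 8 h, all above that value, and the log2 change was -1.29 (chr4:147976663-147989608, mm9). However, 54.9% of the exon bases of Masp2 overlap Tardbp on the opposite strand, an mRNA at 198 and 179 FPKM at 6 h, and how reads of the shared bases were assigned was not tested. Mdk, the gene of the heparin-binding growth factor midkine, was at 0.727 with HU210 and 4.74 with DMSO at 6 h, and at 2.21 to 5.26 in the other DMSO libraries. This wide DMSO range and a HU210 value of 5.20 at 2 h show how much the gene varied between libraries. Irf5, a transcription factor of innate immunity, was lower with HU210 than in any DMSO library at 2 h (1.07 FPKM), 4 h (0.791) and 6 h (0.479), and stood at 2.01 at 8 h, while the 4 DMSO libraries spanned only 1.74 to 2.04. Dnase1l1, a relative of DNase I, was at 2.11 against 3.63 to 5.65. Dok2, an adaptor that restrains tyrosine kinase signalling, was at 0.393 against 0.953 to 1.28. C1s1, a protease of the first complement component, was at 0.956 against 1.79 to 3.13, while its neighbour and close copy C1s2 was at 1.88 against 0.28 to 1.21. The pair shares exon bases, and how reads were split between the copies was not tested. Gm14769, a pseudogene, was at 0.042 against 2.29 to 3.74.

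The promoters of the genes high in the HU210 library were searched for the letters of the cAMP response element (CRE), the site that CREB binds, because the cAMP pathway lies downstream of CB1R. Of the genes 1.5-fold higher at 6 h, with a HU210 value above all 4 DMSO libraries and at least 300 bp of exons, 120 were taken, and 84 of these matched promoters in the RefSeq table (110 windows of the 250 bases before an annotated start, GRCm38.p6). The full element TGACGTCA, which reads the same on both strands, was in 6 of the 110 windows (5.45%), against 2.38% of 14634 windows of all genes listed at 6 h and 1.55% of 32851 windows in all. The shorter form TGACG, searched on both strands and contained in the full element, was in 29.1% against 24.4% of the listed genes' windows. The motif TTCNNNGAA of STAT factors was in 4.55% against 5.93%, and the GC box GGGCGG in 58.2% against 53.6%. Of 43 windows of genes low in the HU210 library, 0 held the full element. At the share of 2.38% in listed genes, 43 windows are too few to read this as a contrast. In these windows the STAT motif was in 4 (9.30%), the shorter form in 18.6% and the GC box in 44.2%. The 40 bases around each full CRE are shown 5′ to 3′ on the strand of the gene, with the CRE in capitals, since these are the genes for which the values and the motif can be read together. A match is a description of the letters and not evidence of binding.
BC049762, chr11:51263033-51263072, minus strand: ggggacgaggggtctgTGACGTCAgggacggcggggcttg
Heca, chr10:17948161-17948200, minus strand: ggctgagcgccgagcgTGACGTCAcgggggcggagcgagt
Heca, chr10:17948197-17948236, minus strand: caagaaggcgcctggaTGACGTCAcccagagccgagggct
Paqr3, chr5:97111608-97111647, minus strand: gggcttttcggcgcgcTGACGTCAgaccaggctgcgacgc
Pax6, chr2:105668804-105668843, plus strand: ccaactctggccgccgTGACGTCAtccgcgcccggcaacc
Psd4, chr2:24385093-24385132, plus strand: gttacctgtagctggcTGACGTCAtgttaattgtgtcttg
Ube2h, chr6:30304540-30304579, minus strand: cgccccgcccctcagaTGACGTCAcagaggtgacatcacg

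Heca, Paqr3, Psd4 and Ube2h were named here after their values had been seen. Pax6, a transcription factor of neural development, was at 14.6 FPKM with HU210 at 6 h, 7.83 with DMSO and 9.65 to 11.9 in the other DMSO libraries. Of its exon bases, 27.9% belong to Elp4 as well, which was at 5.72 and 6.08 at 6 h. Paqr3, a Golgi protein that binds Raf kinase, was at 8.75, 5.31 and 4.93 to 7.91 in the same order. For Ube2h, a ubiquitin-conjugating enzyme, these values were 18.9, 12.1 and 13.6 to 18.4. Heca, the homolog of the fly gene headcase, was at 7.45 against 4.57 and 4.99 to 7.33, so its HU210 value only just exceeded the highest DMSO library. Psd4, an exchange factor for the small GTPase ARF6, was at 0.888 against 0.128 and 0.108 to 0.212, low in every library. In Pax6, Paqr3, Ube2h and Heca the DMSO library of 6 h was at or near the low end of the DMSO libraries, and part of the log2 change of 0.82, 0.63, 0.60 and 0.60 lay on that side.

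Pde4d, the gene with the farthest HU210 value, had none of the searched motifs in the RefSeq window of 250 bases (chr13:108653927-108654176 of GRCm38.p6, plus strand), which belongs to 1 of several starts of this long gene. It is printed in lower case throughout, as no motif was found, and other starts of the gene were not analysed here.
Pde4d: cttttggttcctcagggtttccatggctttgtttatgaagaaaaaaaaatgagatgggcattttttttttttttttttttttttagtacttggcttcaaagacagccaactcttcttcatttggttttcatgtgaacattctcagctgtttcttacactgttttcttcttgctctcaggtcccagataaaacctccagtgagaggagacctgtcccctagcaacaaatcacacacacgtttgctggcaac

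In a second group of genes past 1.5-fold, the DMSO library of 6 h stood apart from the other DMSO libraries and the HU210 library did not. Ywhah, the 14-3-3 protein eta, was at 119 FPKM with HU210 and 74.5 with DMSO at 6 h, a change of 0.67. The DMSO libraries of 2 h, 4 h and 8 h had 113, 166 and 112, so the HU210 value lay among them and the control of 6 h lay below. The HU210 library of 4 h was nearly as low, at 76.6. Zfand5, a zinc finger protein that activates the proteasome, was at 25.4 with HU210, 16.2 with DMSO and 24.4 to 33.0 in the other DMSO libraries, and at 15.1 with HU210 at 4 h. For Mtif3, a translation initiation factor of mitochondria, these values were 13.1, 7.63 and 12.9 to 15.9, and for Lix1l they were 12.7, 7.63 and 12.5 to 14.9. Of the exon bases of Mtif3, 29.4% also belong to Gtf3a on the opposite strand, so its values are uncertain. All 4 genes were past 1.5-fold at 6 h, and each was slightly lower with HU210 than the mean of the other DMSO libraries.

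In the lower direction the control of 6 h was high. Bmf, a pro-apoptotic member of the BCL2 family, was at 4.84 FPKM in the DMSO library of 6 h and at 1.35 to 1.53 in the other DMSO libraries, with 1.62 in the HU210 library. The HU210 library of 2 h was near the level of that control, at 4.70. Lztfl1, a regulator of ciliary traffic through the BBSome, was at 12.02 in that control against 1.99 to 5.06, with 2.89 after HU210. Angel1, a relative of the CCR4 deadenylase, was at 6.68 against 2.31 to 2.34, with 2.55, and the HU210 library of 8 h was higher still, at 9.02. The DNA repair genes Xrcc3 and Dclre1c were also high in the control of 6 h. Xrcc3, a gene of homologous recombination, was at 3.89 in the control of 6 h, 1.26 to 1.63 in the other DMSO libraries and 0.921 with HU210. Dclre1c, the end-joining nuclease Artemis, was at 13.6, 5.36 to 6.93 and 5.75. H2aw, a histone H2A gene, was low in the control (3.09 FPKM against 8.27 to 8.83) where Trim17, with which it shares 35.6% of its exon bases on the same strand, was high (3.02 against 0.697 to 0.947), and how reads were split between the overlapping genes was not tested.

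**Figure D3:**
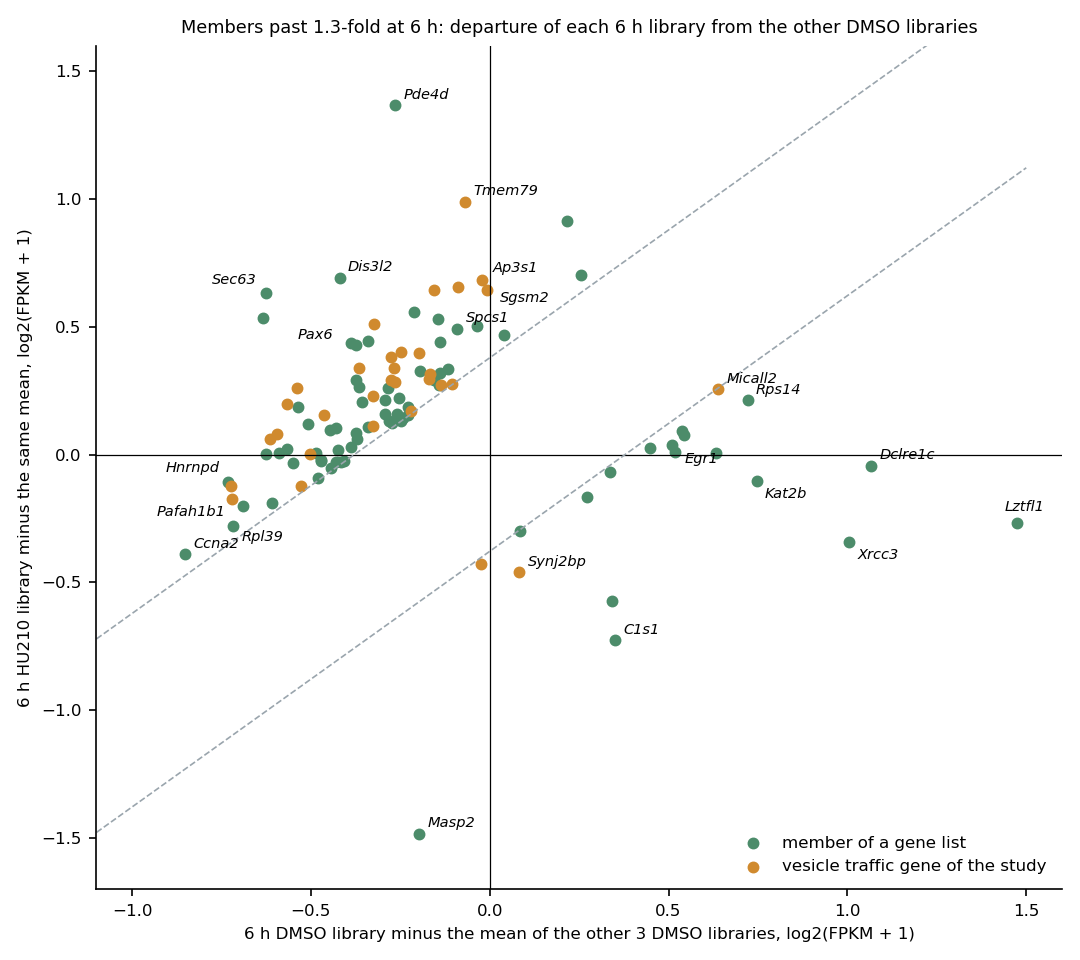
List members and vesicle traffic genes past 1.3-fold at 6 h. The horizontal axis is the departure of the DMSO library of 6 h from the mean of the DMSO libraries of 2, 4 and 8 h and the vertical axis that of the HU210 library of 6 h, both on the log2(FPKM + 1) scale; dashed lines mark a 1.3-fold difference between the 6 h libraries. Pde4d and Masp2 depart on the HU210 axis (1.37 and -1.48), Lztfl1 and Dclre1c on the DMSO axis (1.47 and 1.07).

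The largest changes among genes at a mean FPKM of 1 or more included many short RNAs. Of the 12 largest increases, 5 were a snoRNA, microRNA or other RNA of less than 300 bp, and of the 12 largest decreases 7 were. Snora52 led the increases with 6.26 FPKM against 0 in the control, but it was also 0 in the DMSO libraries of 2 h and 8 h and 16.2 in that of 4 h, and its bases lie wholly within the exons of Rplp2. Among the longer genes in this group was Gm20498, at 14.1 against 4.01 and 2.83 to 9.06 in the other DMSO libraries. Smim19 was at 17.3 against 5.10 and 7.74 to 13.5 in the same order. Abhd1 was at 12.5 against 3.603, but the DMSO library of 2 h had 12.4, and 89.6% of its exon bases overlap Preb. Bricd5, which overlaps Mlst8 over 100% of its exon bases, and Gm20498, which shares 66.0% of them with Cox16, are uncertain for the same reason.

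Gene lists of the pathways that could respond were then described by their median and by their members past 1.3-fold, beside 5.14% higher and 1.81% lower over all genes. Of the 48 cAMP and CREB pathway genes listed, 3 were higher, 0 were lower and the median change was 0.037. Besides Pde4d, these were the regulatory subunits of protein kinase A Prkar2a, at 19.6 FPKM with HU210 and 14.5 with DMSO, and Prkar2b, at 9.80 and 6.45. Both control values were the lowest of the 4 DMSO libraries. None of the 8 adenylyl cyclases was past 1.3-fold. Of 23 genes of CB1R signalling and the endocannabinoid system, 5 were higher and 0 lower, with the highest median of the 24 lists (0.14). The receptor gene Cnr1 was at 27.9 with HU210 at 6 h, 20.2 with DMSO, and 17.3 to 27.0 in the other DMSO libraries. Rap1a, a small GTPase of the pathway, was at 10.5 against 7.01 and 5.63 to 9.96. Its homolog Rap1b, at 145 against 102, and Rala, at 23.8 against 16.5, had a HU210 value within the other DMSO libraries (112 to 192 and 22.9 to 24.5) and a control below them.

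Immediate early genes and the ERK feedback genes did not stand higher at 6 h. Of 40, 0 were higher and 2 lower, with a median of 0.0028. Egr1 was at 19.2 with HU210 and 27.0 with DMSO at 6 h, against 18.3 to 18.9 in the other DMSO libraries, and Egr3 was at 0.659, 1.56 and 0.607 to 0.723. In both, the control of 6 h was high and the HU210 value was near the other controls. Fos was at 1.83 and 1.79. Of 30 PI3K and AKT pathway genes, 4 were higher and 0 lower, all of them brakes or targets of AKT (among them Phlpp1, Foxo3 and Gsk3a) and none a kinase subunit of the list. Foxo3, a transcription factor that AKT inhibits, was at 9.63 against 7.13, and the AKT target Gsk3a at 30.6 against 22.7 and 20.9 to 28.0 in the other DMSO libraries.

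Of 28 ER translocation genes, 4 were higher and 0 lower (median 0.065). Sec63, a partner of the translocation channel, was at 89.1 against 36.7 at 6 h, and its DMSO libraries of 2 h, 4 h and 8 h had 44.9, 106 and 39.1. Its HU210 libraries were at 80.0, 67.1 and 79.2 at 2 h, 4 h and 8 h, above the DMSO library of the same time except at 4 h. Sec62, which works with Sec63, was at 22.9 against 14.5, within 13.6 to 27.3 of the other DMSO libraries. Tram1 and the signal peptidase subunit Spcs1 were higher with HU210 than in all 4 DMSO libraries, Tram1 at 41.7 against 30.1 to 38.6 and Spcs1 at 62.7 against 39.0 to 50.3. None of the 28 coat proteins of COPII and COPI vesicles was past 1.3-fold, and their median was 0.0043. In 20 Golgi structure genes, 3 were higher (Golph3, Tmed2 and Tmed7) and 0 lower, with a median of 0.088. Tmed2, a cargo receptor of the early secretory pathway, was at 70.0 against 43.9 to 66.4 in the DMSO libraries, and Golph3 at 25.2 against 15.1 and 14.1 to 28.0.

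Of 45 SNAREs and regulators, 2 were higher and 0 lower (median 0.046), and of 19 genes of endosome to Golgi traffic and late endosomes 1 and 0 (median 0.05). Snapin, which binds the SNARE SNAP-25, was at 15.3 with HU210 at 6 h, 8.15 with DMSO, and 7.42 to 13.9 in the other DMSO libraries. Fyco1, an adaptor that links late endosomes to kinesin, was at 3.30 against 1.47 and 1.302 to 2.90. The endosomal syntaxin Stx7 was at 10.3 against 6.66, within 6.22 to 11.2.

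The study assigned 32 genes of vesicle traffic to 6 h from these same libraries, so their direction is no independent evidence. Past 1.3-fold, 29 were higher and 3 lower. Of the 29, 15 had a HU210 value above all 4 DMSO libraries and 13 had a control of 6 h below the other DMSO libraries. Over all 824 genes 1.3-fold higher and listed at all times, the HU210 value was above all 4 for 369 (44.8%). The control lay outside the other DMSO libraries, on either side, for 488 (59.2%). Ap3s1, a subunit of the AP-3 adaptor, was at 13.1 against 5.50 to 9.95 in the DMSO libraries, Sgsm2, a GTPase-activating protein for Rabs, at 9.32 against 5.34 to 5.94, and Fcho1, an early endocytic protein, at 8.11 against 4.18 to 5.53. In these the HU210 library stood apart. Rab12 was at 21.6 against 13.2 at 6 h and 17.1 to 25.1 in the other DMSO libraries, and Exoc5, a subunit of the exocyst, at 16.4, 10.5 and 13.1 to 21.4. For Rab12 and Exoc5 the HU210 value lay within the other DMSO libraries. Micall2, a Rab effector, was at 12.3 against 16.4 and was counted as lower, although both values exceeded the 8.75 to 12.1 of the other DMSO libraries.

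Of 35 sphingolipid genes, 5 were higher and 0 lower (median 0.077), and the 7 glycosphingolipid genes had a median of 0.34. Ugcg, which makes the first glycosphingolipid, glucosylceramide, was at 16.1 against 9.39 and 11.1 to 21.4. St3gal5, which makes the ganglioside GM3, was at 9.32 against 6.55 and 8.501 to 10.9. For both, the control was the lowest of the DMSO libraries. Cers1, a ceramide synthase of neurons, was at 6.10 against 3.13 to 4.61, but 44.4% of its exon bases also belong to Gdf1 on the same strand. Of 26 phospholipid synthesis genes, 5 were higher and 2 lower (median 0.042). The higher ones included Crls1, the cardiolipin synthase, at 18.7 against 13.01 and 17.5 to 29.9, and Ptdss1, a phosphatidylserine synthase, at 27.2 against 20.5 and 22.6 to 37.3. Both HU210 values lay within the other DMSO libraries. Of the lower pair, Cept1, which completes phosphatidylcholine and phosphatidylethanolamine, was at 9.05 against 9.83 to 12.4. It shares 24.7% of its exon bases with Dennd2d on the opposite strand. The choline kinase Chka was at 7.21 against 12.8 and was not listed at 2 h and 4 h. Of 26 sterol synthesis genes, 0 were higher and 0 lower, with the lowest median of the 24 lists (-0.058).

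The mRNA decay list held 61 genes, of which 9 were higher, 0 lower, and the median was 0.077. The CCR4-NOT deadenylase subunits Cnot2, Cnot6, Cnot7 and Cnot11 were among them. Cnot6, a catalytic subunit, was at 46.9 against 29.2 and 30.4 to 50.4, and the non-catalytic Cnot2 at 61.8 against 42.8 and 59.2 to 71.4. The HU210 values of both lay within the other DMSO libraries. Hnrnpd, which binds AU-rich elements, was at 102 against 65.9 and 74.4 to 179. In the whole group, 8 of the 9 higher genes had a control of 6 h below the other DMSO libraries, and for Dis3l2 and Ago3 the HU210 value exceeded all 4. Over all genes 1.3-fold higher and listed at all times, 59.2% had a control outside the other DMSO libraries on either side. The HU210 value exceeded all 4 for 44.8%. Dis3l2, a cytoplasmic exonuclease, was at 15.03 against 6.83, 14.4, 6.41 and 7.10 in the DMSO libraries of 2, 4, 6 and 8 h, the 4 h value being nearly as high. Ago3, an Argonaute of the silencing complex, was at 5.58 against 2.29 to 5.45.

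Of 68 genes of microtubule plus ends, motors and stathmins, 5 were higher and 0 lower (median 0.089), all of them from the 19 plus-end genes. For all 5 the control of 6 h was below the other DMSO libraries. Over all genes 1.3-fold higher and listed at all times, the control was outside them, on either side, for 59.2%. Macf1, a spectraplakin that links actin and microtubules, was at 19.6 against 12.3 and 18.2 to 21.5, and Slain2, which promotes microtubule growth, at 14.5 against 10.6 and 11.9 to 14.1. Pafah1b1, the dynein regulator LIS1, was at 51.3 against 34.8 and 50.6 to 69.7. Of 32 cilium and BBSome genes, 1 was higher (Bbs5) and 1 lower (Lztfl1), with a median of 0.06. Of 35 semaphorins and plexins, 0 were higher and 1 lower (Cd72, below 1 FPKM in both 6 h libraries), and their median was 0.

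Of 41 genes of the TGF-beta superfamily, 5 were higher and 3 lower (median 0.058). Id4, a dominant-negative regulator that BMP signals induce, was at 5.18 with HU210 and 2.54 to 4.38 in the DMSO libraries. Smurf2, a ubiquitin ligase for Smads, was at 16.5 against 10.97 and 12.04 to 16.5, and Smad1, which carries BMP signals to the nucleus, at 10.7 against 7.57 and 8.57 to 12.4. The lower genes included Gdf15, a stress-induced ligand, at 27.8 against a high control of 38.2 and 22.8 to 27.9. Of 44 DNA repair genes, 2 were higher and 3 lower (median 0.034). The latter were Xrcc3 and Dclre1c, both described above, and Fancf, a Fanconi complex subunit, at 1.297 against 1.77 to 3.54. Of 17 complement genes, 3 were higher and 2 lower (median 0), and the higher genes C2 and C4a were below 1 FPKM in every library. In 30 histone acetylation genes, 1 was higher and 3 were lower (median 0.049). The acetyltransferase Kat2b was at 9.23 against a control of 17.4 and 7.77 to 14.99 in the other DMSO libraries. Hdac5, a class IIa deacetylase, was at 19.8 against 28.6 and 17.9 to 21.5, and Hdac7 at 10.3 against 14.2 and 9.53 to 10.9, so for all 3 the control of 6 h was the highest DMSO value. Over all genes 1.3-fold lower and listed at all times, the control was outside the other DMSO libraries, on either side, for 71.7%.

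Of 79 cytosolic ribosomal protein genes, 3 were higher and 3 lower (median 0.015), and of 73 nuclear genes of oxidative phosphorylation 2 were higher and 0 lower (median 0.063). Rps16 was at 167 with HU210 and 77.2 to 149 in the DMSO libraries. Rps14 was at 527 against 750.4, but its DMSO libraries alone spanned 318 to 750.4. Both genes have many processed copies in the genome with which reads can be shared. Of 45 cell cycle genes, 1 was higher (cyclin A2, Ccna2) and 0 lower, and the median was 0.10. Ccna2 was at 47.9 with HU210 and 34.5 with DMSO at 6 h, both below the 51.9 to 81.8 of the other DMSO libraries. Of 27 hypoxia-inducible genes, 3 were higher and 0 lower (median -0.0069), among them Pfkfb3, an enzyme that drives glycolysis, at 20.1 against 12.7 and 14.0 to 22.8. The neuroblast and neuronal markers had a median change of 0.23, and 5 of 20 were higher and 0 lower. Hand2, a transcription factor of sympathetic neurons, was at 108 with HU210 and 70.5 to 105 in the DMSO libraries, just above the highest of them. In bulk RNA a change in the share of cells that express such a marker and a change in RNA per cell cannot be told apart.

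Of the 24 lists, 17 had a median above that of all genes (0.0221), but 8 without the trend on GC content and length described below, and 9 above that of the 11306 better expressed genes (0.0625). The sign of a median depended on the scaling, as 11 of the 24 medians changed sign with the pair centred and 11 with the trend removed. Against the mean of the other DMSO libraries, the HU210 medians ran from -0.11 to 0.12 and were above 0 in 13 lists, with the sign changed in 10. The medians of the 6 h control against the same mean ran from -0.19 to 0.099 and were below 0 in 19. For the cell cycle list, the median change of 0.10 was made of a HU210 median of -0.072 and a control median of -0.19, both below the other DMSO libraries. In the immediate early list, HU210 (0.12) and control (0.099) were both above them. The PI3K and AKT list (0.12 against 0.013), the TGF-beta list (0.086 against -0.009) and the cAMP and CREB list (0.058 against -0.0059) were among those in which the HU210 median departed farther than that of the control, as was sterol synthesis (-0.11 against -0.011).

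**Figure D4:**
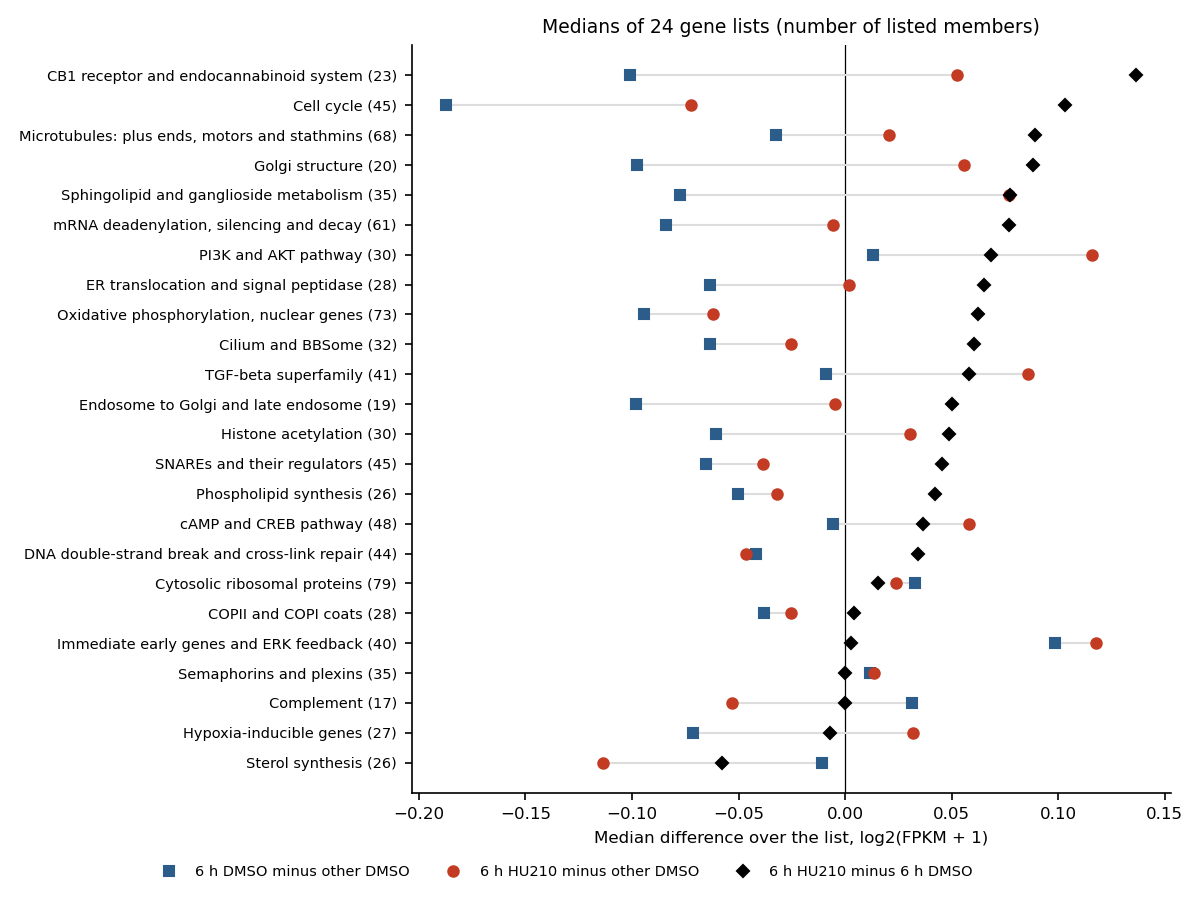
Median differences of 24 gene lists on the log2(FPKM + 1) scale (horizontal axis), with the number of listed genes after each name. Black diamonds give HU210 against DMSO at 6 h, red circles the HU210 library and blue squares the DMSO library of 6 h, each set against the mean of the other DMSO libraries; the blue squares lie below 0 in 19 of 24 lists.

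The genes past 1.5-fold at 6 h were followed to the other time points. Of the 250 higher genes, 27 (10.8%) were also 1.5-fold higher at 8 h, where 1.17% of all genes were, and 8 (3.2%) were 1.5-fold lower, where 0.623% were. At 8 h, 180 of the 250 had a change above 0, with a median of 0.22. At 4 h the picture was inverted, with 123 of the 250 (49.2%) lower, against 6.6% of all genes, and 11 (4.4%) higher, against 2.2%. At 2 h, 12 (4.8%) were higher, against 0.655%, and 18 (7.2%) lower, against 1.33%. Sec63 was of this kind, lower with HU210 at 4 h and higher at 2 h, 6 h and 8 h. The DMSO library of 4 h had the highest DMSO value for many of the genes named, such as Ywhah, Hnrnpd and Macf1. Of the 126 lower genes, 14, 21 and 17 were lower and 16, 11 and 19 higher at 2 h, 4 h and 8 h. The time points have libraries of their own, so these counts compare 4 separate pairs.

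Base composition moved with the change at 6 h. Over the same 11306 better expressed genes, the change had a Spearman correlation of -0.27 with the GC content of the exons, across genes that share the same libraries. In 5 groups of genes of rising GC content, the median change fell from 0.15 to 0.10, 0.048, 0.020 and 0.013. The DMSO library of 6 h against the other DMSO libraries had a correlation of 0.34, with medians of -0.13 in the group of lowest GC and 0.060 in the highest. The HU210 library against the same mean had 0.11, with medians of 0.031 and 0.078. In the group of lowest GC content, 275 genes were 1.3-fold higher and 33 lower, and in the highest 62 and 54. The GC content of some named genes is given here by the direction in which a 6 h library had moved. With a control below the other DMSO libraries, Sec63 and Zfand5 have 40.6% and 38.2%, but Mtif3 has 52.8%. With a control above them, Bmf and Angel1 have 54.1% and 54.7%, but Lztfl1 has 36.9%. With a HU210 value above all DMSO libraries, Pde4d and Cflar have 47.7% and 44.1%, and Stat5a has 55.8%. With a HU210 value below all of them, Masp2 has 48.6%, and Mdk and Irf5 have 58.0% and 56.2%. The controls of Sec63, Zfand5, Bmf and Angel1 thus moved the way of the trend in the DMSO library of 6 h, and those of Mtif3 and Lztfl1 the opposite way. These few genes do not test the trend. The part of base composition in these differences was not tested beyond the fit without its trend.

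**Figure D5:**
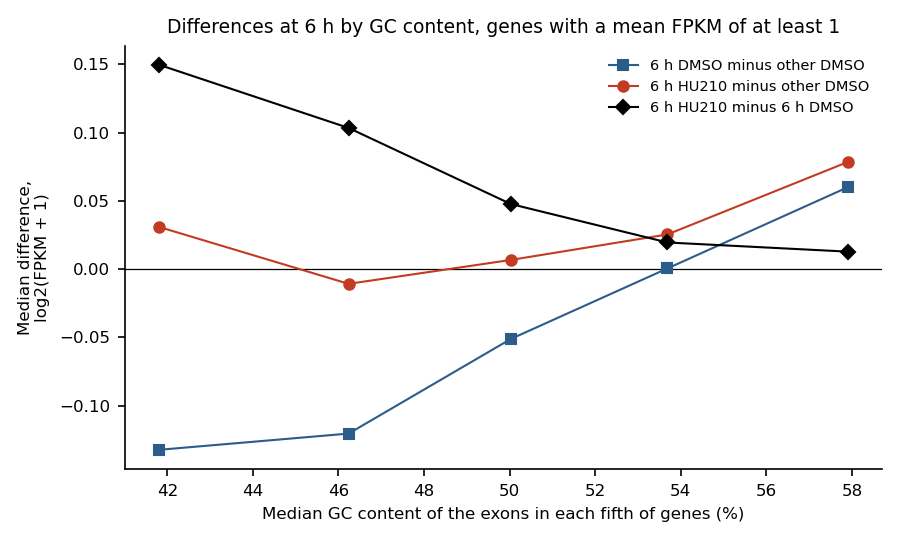
Median difference on the log2(FPKM + 1) scale (vertical axis) in 5 groups of equal size of the 11306 better expressed genes, by the median GC content of their exons in percent (horizontal axis). The DMSO library of 6 h against the other DMSO libraries (blue) rises from -0.13 to 0.060, and HU210 against DMSO at 6 h (black) falls from 0.15 to 0.013.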

How the data were processed

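The 8 libraries were 1 for each combination of HU210 or drug-free DMSO and 2 h, 4 h, 6 h or 8 h. Per the submitters' processing notes and methods, the authors mapped reads to mm9 with TopHat2 2.0.8, Bowtie2 2.1.0 and SAMtools 0.1.7, using Ensembl gene models, and computed FPKM with Cufflinks and Cuffdiff, scaling by the upper quartile and correcting for fragment bias and for reads that map more than once. Versions of the gene models and of Cufflinks are not given in the sources used here. The deposited FPKM carry an added 1, which was subtracted for levels and kept as the pseudocount of the log2 change. Log2 fold changes, p-values, q-values and calls of Cuffdiff, and a second table of DEGs, are the authors' own comparisons and were not used.

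A gene was called past a fold of 1.5 or 1.3, the cutoffs of the study. Each 6 h library was also set against the lowest, highest and mean log2 value of the DMSO libraries of 2 h, 4 h and 8 h. No test was run, since each condition has 1 library, and FPKM without read counts per gene give no counting interval. The members and lists were chosen with earlier results of these data known. Genes were named by rule: at a mean FPKM of 1 or more, the 12 largest increases and decreases, the 10 genes past 1.5-fold in each direction with the farthest HU210 value outside the 4 DMSO libraries, the 8 in each direction with the farthest DMSO value of 6 h outside the other 3, list members past 1.3-fold first, and the genes of the study's 6 h enrichment tables. Paralogs, overlapping genes and a few others (among them Stat3, Stat5b, Ccdc28b and Cflar) were named after their values were seen. Markers of neurons, fibroblasts, macrophages, glia and endothelium checked the cell type.

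Exon positions, length and GC content came from GENCODE vM1 on mm9, and promoters from RefSeq (GRCm38.p6), matched by symbol. Alternatives were a pseudocount of 0.1, a mean FPKM of at least 1, centring on the median, the mean of the other DMSO libraries as the reference, each of these left out in turn, and removal of a loess trend on GC content and length (span 0.3, degree 1). Restriction to genes with at least 300 bp of exons was added after seeing the data. The steps were tested on simulated data. Python 3.11.15 (numpy 2.4.6, pandas 2.3.3, scipy 1.17.1, matplotlib 3.10.9) and R 4.3.3 were used.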

Additional observations from a re-analysis of the deposited data

Results flagged for a closer look

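Among genes at least 1.5-fold higher at 6 h, 123 of 250 were at least 1.5-fold lower at 4 h, 18 at 2 h and 8 at 8 h. Of all genes, 6.6%, 1.33% and 0.623% were lower at these times. Of the 250, 11, 12 and 27 were at least 1.5-fold higher at 4 h, 2 h and 8 h. Among the 126 genes at least 1.5-fold lower at 6 h, at least 1.5-fold higher were 16 at 2 h and 11 at 4 h, as well as 19 at 8 h. Of all genes, 0.655%, 2.2% and 1.17% were higher at these times. Similar numbers of the 126 went the same way as at 6 h, with 14, 21 and 17 lower at 2 h, 4 h and 8 h. The pairs of libraries thus moved in opposite directions for some of these genes and in the same direction for others. With 1 library per condition the differences between time points were not tested.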

How the results depend on the processing

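The counts of genes past a fold depended on the low end of expression. With a pseudocount of 0.1, 667 genes were 1.5-fold higher and 523 lower, and 1646 and 980 at 1.3-fold. With a mean FPKM of at least 1, 80 genes were 1.5-fold lower, and with at least 300 bp of exons, added after seeing the data, 85. At 1.3-fold, 561 genes were higher with the pair centred on its median (a shift of 0.0625), 439 against the mean of the other DMSO libraries and 500 without the trend on GC content and length. The HU210 library was outside the range for 231 higher genes without the DMSO library of 4 h. It was outside for 163 without that of 2 h and for 162 without that of 8 h. Called at 1.3-fold, it was outside for 386 of 824 higher and 151 of 279 lower genes. The DMSO library was outside for 488 of 824 (59.2%) and 200 of 279 (71.7%) at 1.3-fold, against 53.2% and 69.8% at 1.5-fold. It was outside for 49 lower genes with a mean FPKM of at least 1 and for 48 of 76 (63.2%) with at least 300 bp of exons. With a mean FPKM of at least 1 and with at least 300 bp of exons, the 1.5-fold higher genes counted at another time became 7 and 6 (higher at 2 h), 6 and 6 (higher at 4 h) and 3 and 3 (lower at 8 h), and 9 were lower at 2 h with the exon limit. For the 1.5-fold lower genes they became 9 and 5 (lower at 2 h), 6 and 5 (higher at 4 h) and 9 and 7 (lower at 8 h), with 9 lower at 4 h and 7 higher at 8 h under the exon limit. Both limits also shrink the set counted, which under the exon limit was 210 higher and 76 lower genes in place of 250 and 126. Without the trend, 8 lists were above the median of all genes instead of 17, and 11 of the 24 list medians changed sign, as did 11 with centring and 10 against the mean of the other DMSO libraries. Of 161 genes named for a change past 1.3-fold or more, 0 turned direction with centring, a pseudocount of 0.1 or the trend removed. In these settings 138, 161 and 126 were still past 1.3-fold. Against the mean of the other DMSO libraries, 36 of 159 turned direction and 63 were still past 1.3-fold. Of the higher genes, the turned values were Mir20a -0.052, Mtif3 -0.11, Lix1l -0.074, Ywhah -0.11, Zfand5 -0.11, St3gal5 -0.022, Ptdss1 -0.051, Crls1 -0.20, Cnot2 -0.031, Cnot7 -0.091, Cnot11 -0.028, Hnrnpd -0.11, Dhx36 -0.024, Fancl -0.028, Slain1 -0.027, Pafah1b1 -0.17, Rpl39 -0.28, Cox5a -0.19, Ccna2 -0.39, Exoc5 -0.13 and Lin7c -0.12. Of the lower genes, they were Gm24029 1.61, Gm22154 0.78, Snora74a 0.73, Gm25636 1.14, Bmf 0.10, Gm25663 0.61, Angel1 0.093, Egr1 0.038, Egr3 0.008, Gdf15 0.093, Hdac5 0.010, Hdac7 0.026, Rps14 0.21, Rps27 0.076 and Micall2 0.26. The causes of these shifts were not tested. The FPKM come without read counts per gene, so no counting interval is given.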
